A study of Homo sapiens with 6 samples.

Results

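The nuclear genes for subunits of the mitochondrial respiratory chain and the ATP synthase were followed through a lncRNA pull-down. The members were the protein-coding genes of the count table whose GENCODE v44 symbol is that of an NDUFA, NDUFB, NDUFC, NDUFS or NDUFV subunit (with NDUFAB1), or begins with UQCR, with COX4, COX5, COX6, COX7 or COX8, or with ATP5. This rule took 84 of the 60676 genes in the table: 37 of complex I, 9 of complex III, 18 of complex IV (NDUFA4 is placed there, as a cytochrome c oxidase subunit) and 20 of complex V. The RNA came from SK-N-BE, an established human neuroblastoma cell line, after 1.5 days in medium with 10 µM retinoic acid, which starts neuronal differentiation, and all 6 libraries share that treatment. The groups were 2 libraries of the whole extract (Input), 2 of RNA retrieved with biotinylated probes against the lncRNA CyCoNP (CyCoNP PD) and 2 retrieved in the same way with control probes for the bacterial LacZ sequence (LacZ PD). The pull-down was made without crosslinking, so it retrieves what stays attached to the target in a native extract, together with what sticks to beads and probes.

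The respiratory chain passes electrons from NADH through complex I, complex III and complex IV to oxygen and pumps protons across the inner mitochondrial membrane, and complex V uses the proton gradient to make ATP. Most subunits of these complexes are encoded in the nucleus, made by cytosolic ribosomes and imported, while a few core proteins are encoded by mitochondrial DNA. Many of the nuclear mRNAs are short and abundant in every cell, neurons included.

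The libraries held 717905 and 791970 counts (Input), 1512148 and 514882 (CyCoNP PD) and 18870 and 140115 (LacZ PD). A gene needed 159 CPM (counts scaled to the library total) to reach 3 counts in LacZ PD 1 and 1.98 CPM in CyCoNP PD 1, so LacZ PD limits every comparison it enters. For LINC02381, the gene of CyCoNP, the log2 fold change against input was 7.59 in the CyCoNP pull-down. All 13 sympathoadrenal markers looked for were detected in both input libraries. Of 8 markers of other cells, PTPRC, CD3E and PECAM1 were at 0 in both. In fibroblasts and other mesenchymal cells COL1A1 and COL1A2 encode the chains of type I collagen. COL1A1 had 192 counts in Input 1 and 10 in Input 2, and COL1A2 had 131 and 2.

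The probes could reach a member directly only through complementary sequence, so the longest exact match of each of the 22 CyCoNP probes, 20 bases each, to the members' transcripts was looked for. A match of at least 10 bases was found in 20 of the 78 members tested (25.6%) and in 62.2% of the 10482 protein-coding genes tested. A match of at least 12 bases was found in 3 members (3.85%) and in 6.92% of the protein-coding genes, and one of at least 13 bases in 0 members and 1.71%. The members' transcripts are short, with a median length of 740.5 bases against 3362 for the protein-coding genes tested. The 3 members with 12 bases are shown with the probe and the transcript site, both 5′ to 3′ and with the complementary bases in capitals. NDUFA6, whose values are given further on, is added with its longest match of 9 bases. All 4 sites lie in a 3′ UTR, in 1 exon of the GRCh38 annotation. They are at chr2:175177046-175177065 (minus strand) for ATP5MC3, chr2:239960921-239960940 (minus strand) for NDUFA10, chr21:42909059-42909078 (plus strand) for NDUFV3 and chr22:42086010-42086029 (minus strand) for NDUFA6.
Probe matched to ATP5MC3: attgCTCATTTCACTTctgt
ATP5MC3 site: tgtaAAGTGAAATGAGgccc
Probe matched to NDUFA10: caaagacGGAAGCTGCTTCt
NDUFA10 site: gGAAGCAGCTTCCattctgg
Probe matched to NDUFV3: atcaggCTCCAGGATGCAac
NDUFV3 site: acTGCATCCTGGAGtgcaaa
Probe matched to NDUFA6: tggcGAAAAGGGAgggtgaa
NDUFA6 site: tgttcttTCCCTTTTCttga
The log2 fold change in CyCoNP PD against input was -0.02 ± 0.61 (SE) for ATP5MC3, 0.34 ± 0.64 for NDUFA10 and -0.06 ± 0.65 for NDUFV3, each within its error of 0. Only exact matches on a single transcript of each gene were looked for, and capture of members by the probes was not tested.

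Together the members took 3.35% and 5.03% of the counts of Input 1 and Input 2, 3.68% and 3.82% of CyCoNP PD 1 and 2, and 3.46% and 5.56% of LacZ PD 1 and 2. The 95% Wilson intervals ran from 3.31% to 3.39% in Input 1 and from 3.21% to 3.73% in LacZ PD 1. They take in counting error alone and treat each count as independent, although copies made by PCR were not marked by molecule. Both CyCoNP PD values lay between the input values, and the LacZ PD values spanned about the same range. With 2 libraries in a group the spread between replicates, 1.19 percentage points (SD) in input and 1.48 in LacZ PD, was larger than the distance between the group means of 4.19%, 3.75% and 4.51%. In CyCoNP PD the spread was 0.097 percentage points, smaller than these distances. By complex, mean CPM in input and CyCoNP PD was 12668 and 13304 for complex I, 4285 and 3203 for complex III, 10562 and 9030 for complex IV, and 14410 and 11966 for complex V. CyCoNP PD lay below both input libraries only in complex III, and 2 against 2 libraries cannot reach significance in a permutation test.

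**Figure D1:**
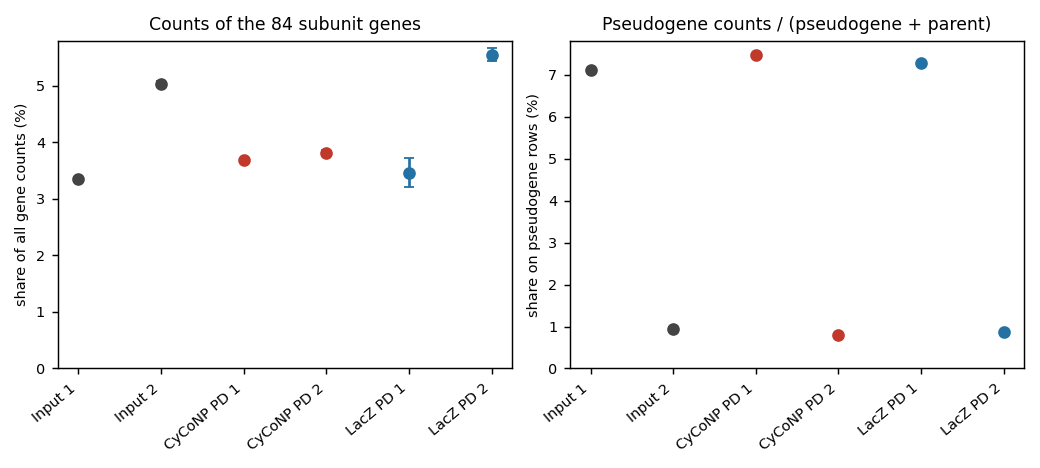
Left, percent of all gene counts in each library that fell on the 84 subunit genes, with 95% Wilson intervals; right, counts on pseudogene rows of the members as a percent of pseudogene and parent counts together. The member share is 3.35% to 5.56%, and the pseudogene share is 7.11% to 7.47% in the replicate 1 libraries and 0.794% to 0.938% in the replicate 2 libraries.

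Of the 84 members, 78 passed the minimum of 10 counts over the 6 libraries. The other 6 had 0 counts in every library: COX6A2 and COX7A1, the muscle forms of their subunits, COX6B2, COX7B2 and COX8C, known from testis, and ATP5MF-PTCD1, a read-through of neighbouring genes. All 6 are entries of the deposited table. In the deepest library 0 counts allow a level of up to 1.98 CPM as the authors counted, and whether the gene models they counted over match those of GENCODE v44 was not checked.
Levels in input ran from 6.44 CPM for COX4I2 to 3371 CPM for ATP5F1E, the epsilon subunit of the ATP synthase. The median of the tested members was 412 CPM, against 17.5 CPM for the protein-coding genes tested. Per kilobase of transcript ATP5ME, a membrane subunit of the ATP synthase, was highest with 3948 CPM per kb, and the highest of the other complexes were COX6C with 2602, NDUFB2 with 2048 and UQCRH with 1045.

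Which subunit mRNAs came down with CyCoNP more than their input level was asked first, with edgeR's quasi-likelihood test over 12565 genes. No member was called higher or lower at a Benjamini-Hochberg adjusted p under 0.05 and a fold change over 2. Over all genes 0.119% were called higher and 0.00796% were called lower. At an unadjusted p under 0.05 this fit had 0 members in either direction, against 3.08% of all genes higher and 2.32% lower. DESeq2 called 0 members as well, with 0.573% of all genes called in either direction, and so did edgeR with the replicate number as a block, with 2.26%. The count at an unadjusted p under 0.05 varied between fits that keep every library. With DESeq2 or library size alone, 1 member was higher and 0 were lower. With no count filter, or with the block under either method, 1 was higher and 1 lower. It stayed at 0 with DESeq2's size factors, filterByExpr, only the compared groups, or pseudogene counts added. For these fits the share of all genes at that p is not given. In the first edgeR fit the median log2 fold change was -0.03 over the 78 members and -0.01 over all genes, with 35 members above 0 and 43 below. The median 95% interval reached 1.41 to each side on the log2 scale. The upper bound lay under a 4-fold rise in 67 of the 78 members, and the lower bound above a 4-fold fall in 69, so changes smaller than these intervals could not be detected.

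**Figure D2:**
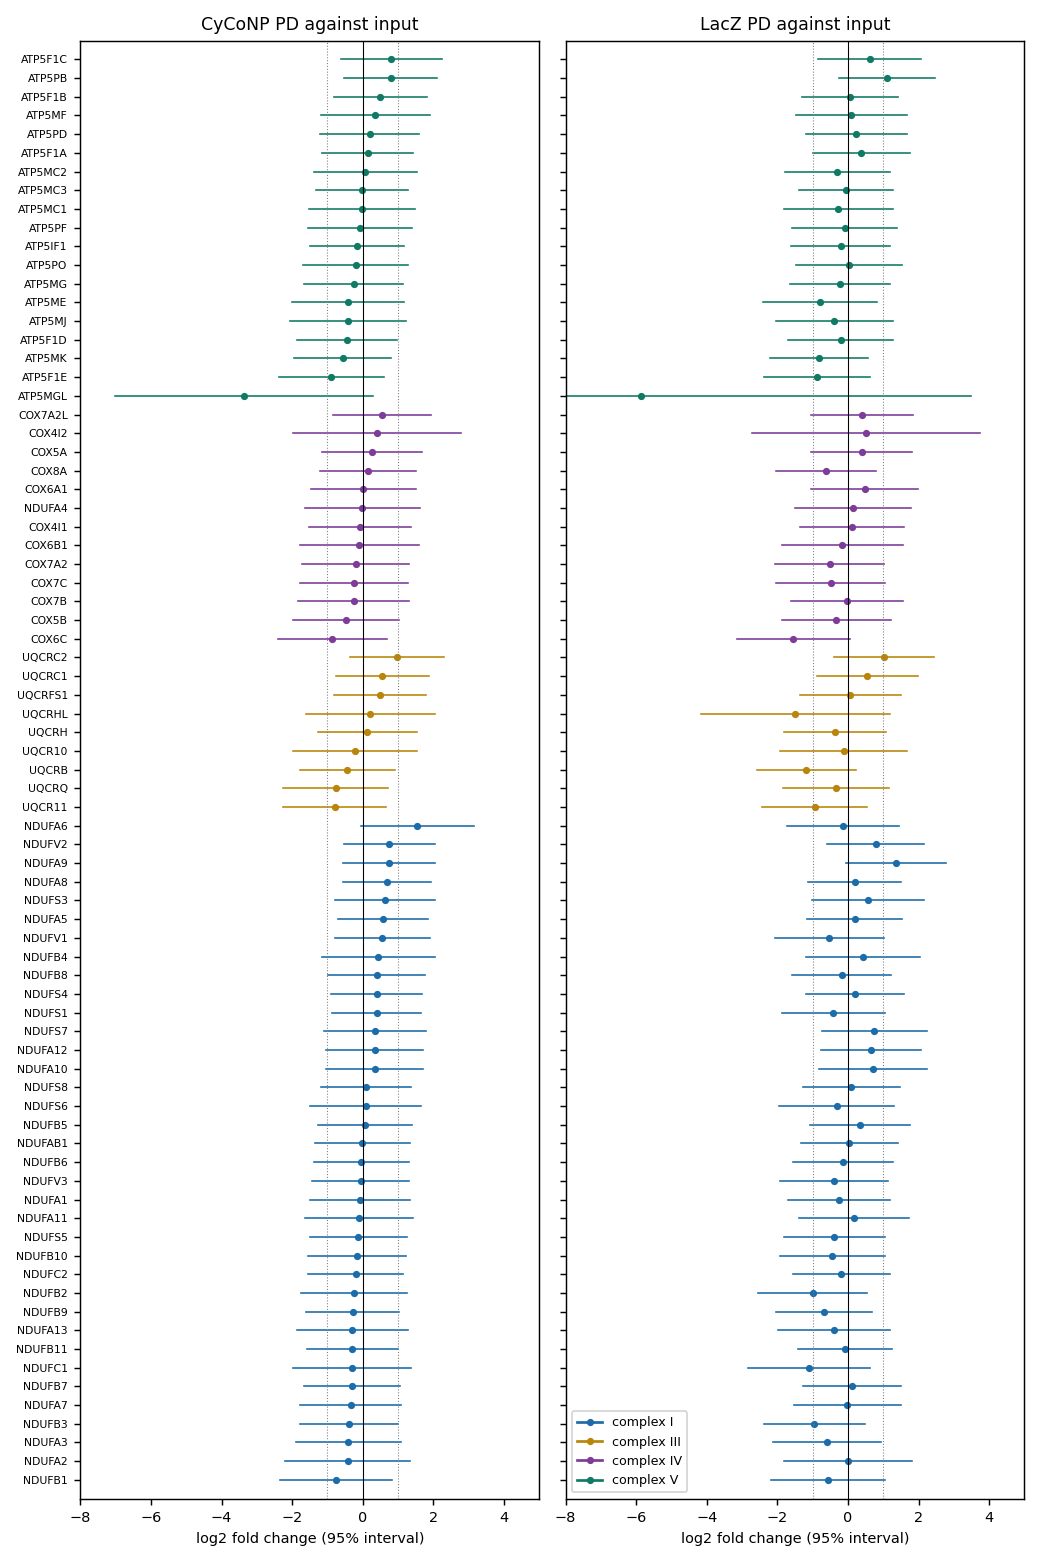
Log2 fold change of 77 of the 78 tested members in CyCoNP PD against input (left) and LacZ PD against input (right), with 95% intervals from edgeR, coloured by complex; dotted lines mark a 2-fold change, and the interval of ATP5MGL on the right runs past the axis to -15.2. The points of both comparisons lie around 0 and 0 members were called.

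NDUFA6, an accessory subunit of complex I of the LYR family, had the highest value of any member in this comparison. It had 460 and 765 counts in Input, against 5205 and 542 in CyCoNP PD, with 17 and 155 in LacZ PD. In CPM these were 641 and 966, 3442 and 1053, and 901 and 1106. A single library, CyCoNP PD 1, stood apart, and CyCoNP PD 2 lay within the range of the LacZ PD libraries. The log2 fold change was 1.55 ± 0.75 (SE) against input (edgeR adjusted p = 0.958) and 1.68 ± 0.76 against LacZ PD (unadjusted p = 0.0434, edgeR adjusted p = 0.871). Without CyCoNP PD replicate 1 the value was 0.42 against input and 0.56 against LacZ PD.

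UQCRC2, a core protein of complex III, was also among the members that were higher. It was at 61.3 and 74.5 CPM in Input, 111 and 146 in CyCoNP PD, with 159 and 200 in LacZ PD. It was above both inputs in every pull-down library, the control pull-down included. Its log2 fold change in CyCoNP PD was 0.96 ± 0.62 (SE, edgeR adjusted p = 1.0).

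Among the members that were lower, ATP5F1E was at 2928 and 3815 CPM in Input, 1760 and 1734 in CyCoNP PD, with 1961 and 2969 in LacZ PD. COX6C, a small membrane subunit of cytochrome c oxidase, was at 1712 and 2160 CPM in Input, 935 and 1123 in CyCoNP PD, with 424 and 1199 in LacZ PD. CyCoNP PD did not overlap Input for either gene. The log2 fold changes were -0.90 ± 0.69 for ATP5F1E and -0.86 ± 0.72 for COX6C (SE, edgeR adjusted p = 1.0 each). ATP5MGL had 18 counts in Input 1, 2 in CyCoNP PD 1 and 0 in the other 4 libraries, so its log2 fold change of -3.37 ± 1.69 rests on Input 1.

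The other highly expressed members had values near their error. UQCR11 and UQCRQ, small subunits of complex III, had log2 fold changes of -0.80 ± 0.68 and -0.77 ± 0.70 in CyCoNP PD against input. NDUFB2 and NDUFB3, membrane-arm subunits of complex I, had -0.25 ± 0.70 and -0.39 ± 0.64. COX7C had -0.25 ± 0.71, and ATP5MC2, a gene for the c ring of the ATP synthase, 0.08 ± 0.69. ATP5PO, the stalk subunit used as an RT-qPCR reference in the motor neurons of the study, was at 345 and 479 CPM in Input, 323 and 371 in CyCoNP PD, with 265 and 749 in LacZ PD. The CyCoNP PD libraries spanned the lower input library for ATP5PO, and its log2 fold change was -0.20 ± 0.69.

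**Figure D3:**
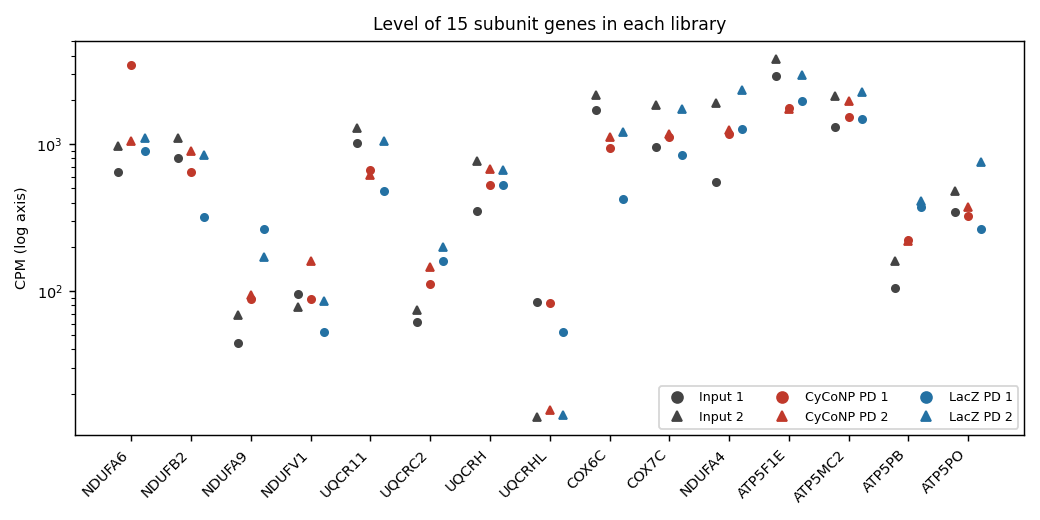
CPM on a log axis of 15 subunit genes in each of the 6 libraries; circles are replicate 1, triangles replicate 2, and colours the groups. NDUFA6 in CyCoNP PD 1 (3442 CPM) stands above its other 5 libraries, and UQCRHL is higher in replicate 1 of each group.

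In CPM, which carry no scaling beyond the library total, both libraries of CyCoNP PD lay above both inputs in 16 members, against 15.9% of all genes. They lay below both in 15 members, against 20.3% of all genes. After TMM scaling, the scaling of the edgeR fit, the counts were 17 members above (17.2% of all genes) and 10 below (18.6%). Within libraries of the same replicate number, also after TMM scaling, 24 members were higher in both pairs and 13 lower in both, against 26.3% and 29.97% of all genes. The 16 in CPM included NDUFS1, NDUFV2, NDUFA5, NDUFA6, NDUFA8, NDUFA9, NDUFA10 and NDUFB8 of complex I, and UQCRC1, UQCRC2 and UQCRFS1 of complex III. They also included COX7A2L of complex IV, and ATP5F1B, ATP5F1C and ATP5PB of complex V. The 15 in CPM were ATP5F1E, ATP5ME, ATP5MG, ATP5MK, COX5B, COX6C, NDUFB1, NDUFB7, NDUFB9, NDUFB11, NDUFA2 and NDUFA13, and UQCR11, UQCRB and UQCRQ of complex III.

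The control pull-down was set against the same input libraries, so the values of both comparisons share them. No member was called in LacZ PD by edgeR, where 0% of all genes were called higher and 0% were called lower. At an unadjusted p under 0.05 there were 0 members, against 0.74% of all genes higher and 6.28% lower. Over the fits that keep every library, that count moved from 0 to 3 members higher and from 0 to 3 lower. With library size alone 3 were higher, with DESeq2 2 were higher, and with the replicate block 1 was higher and 3 lower. No share of all genes at that p is given for these fits, so these counts describe the members alone. DESeq2 called 0 members, with 0.43% of all genes, and the replicate block 0 members, with 0.923%. The median of the members was -0.13 and that of all genes -0.68. In CPM both LacZ PD libraries lay above both inputs in 19 members (10.6% of all genes) and below in 5 (33.7% of all genes). This balance turned with the scaling: after TMM 6 members lay above (5.75% of all genes) and 9 below (39.9%). Within the same replicate number, after TMM, 19 members were higher in both pairs and 32 lower in both, against 9.58% and 48.4% of all genes. NDUFA9, which sits between the arms of complex I, was at 44.6 and 68.2 CPM in Input and 265 and 171 in LacZ PD, from 5 and 24 counts. Its log2 fold change was 1.36 ± 0.66 (SE, edgeR adjusted p = 0.718). ATP5PB, the peripheral stalk subunit b, had 1.11 ± 0.64 and UQCRC2 1.03 ± 0.66. COX6C had -1.55 ± 0.74, UQCRB -1.18 ± 0.66 and NDUFB3 -0.95 ± 0.67. Without LacZ PD replicate 2 the values were 0.31 for ATP5PB, 0.06 for UQCRC2, -3.36 for COX6C, -2.21 for UQCRB and -1.84 for NDUFB3, and without Input replicate 1 NDUFA9 was at 0.96. The scaling moves these values: with library size alone the median was 0.32 over the members and -0.34 over all genes.

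Set directly against each other, the pull-downs gave 0 member calls by edgeR, where 0% of all genes were called higher in CyCoNP PD and 0% lower. At an unadjusted p under 0.05, NDUFA6 was the 1 member higher (4.74% of all genes) and 0 were lower (0.462%). At that p 0 members were higher with library size alone, DESeq2's size factors, filterByExpr, or only the compared groups in the fit. It was 1 member with DESeq2, no count filter, pseudogene counts added to parents, and the replicate block in edgeR or DESeq2. No share of all genes at that p is given for these fits. Fits that leave a single library in a group are described by size alone. Without CyCoNP PD replicate 1 the log2 fold change of NDUFA6 was 0.56. Without LacZ PD replicate 2 the median was 1.31 over the members and 4.58 over all genes. DESeq2 called 0 members (0.302% of all genes) and the replicate block 0 (0.772%). The median was 0.05 over the members and 0.64 over all genes. With library size alone these medians were -0.42 and 0.22. In CPM CyCoNP PD lay above both LacZ PD libraries in 1 member, NDUFV1 (29.3% of all genes), and below both in 23 (9.57% of all genes). Here too the balance turned with the scaling: after TMM 8 members, NDUFV1 among them, lay above (35.9% of all genes) and 1, NDUFA9, lay below (4.25%). Within the same replicate number, after TMM, 16 members were higher in both pairs and 3 lower in both, against 44.5% and 6.83% of all genes. NDUFV1, which holds the NADH site of complex I, was at 88.0 and 159 CPM in CyCoNP PD, with 53.0 and 85.6 in LacZ PD, the last from 1 and 12 counts. Its log2 fold change was 1.09 ± 0.72 (SE, edgeR adjusted p = 0.871), and 0.64 without CyCoNP PD replicate 2 and 2.43 without LacZ PD replicate 2. UQCRHL had 1.70 ± 1.24, from 1 and 2 counts in LacZ PD. The lowest by p were NDUFA9 at -0.63 ± 0.65, COX6A1 at -0.45 ± 0.70 and NDUFB7 at -0.42 ± 0.65.

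The fold changes against input were ordered by the size of the subunit. Across the 78 members Spearman's rho between coding length and log2 fold change was 0.66 in CyCoNP PD and 0.60 in LacZ PD, and -0.15 between the pull-downs. Over the 10482 protein-coding genes tested it was -0.23, -0.28 and 0.17. Genes are not independent replicates, and the comparisons with input share their input libraries, so these are descriptions. With transcript length in place of coding length, rho over the members was 0.27 in CyCoNP PD and 0.31 in LacZ PD, against -0.29 and -0.32 over the protein-coding genes. Coding length of the members, 153 to 2181 bases with a median of 387, was itself related to their level, with a rho of -0.66 to input CPM over the members and -0.19 over the protein-coding genes. Between input CPM and the log2 fold change rho was -0.53 in CyCoNP PD and -0.49 in LacZ PD over the members, against -0.21 and 0.02 over the protein-coding genes. Input CPM is also the denominator of these fold changes, which by itself lowers that rho, and length and level were not separated. A grouping of complex I made after the values were seen draws on the same members, so it only restates this order. The 7 core subunits, which carry the redox centres, had a median log2 fold change of 0.56 in CyCoNP PD, with 7 of 7 above 0, and 0.58 in LacZ PD, with 5 of 7 above 0. The 30 accessory subunits had -0.10, with 11 above 0, and -0.14, with 12 above 0. Of all genes, 49.4% were above 0 in CyCoNP PD and 32.4% in LacZ PD. The core subunits were also less abundant, with a median of 94.0 CPM in input against 386.

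**Figure D4:**
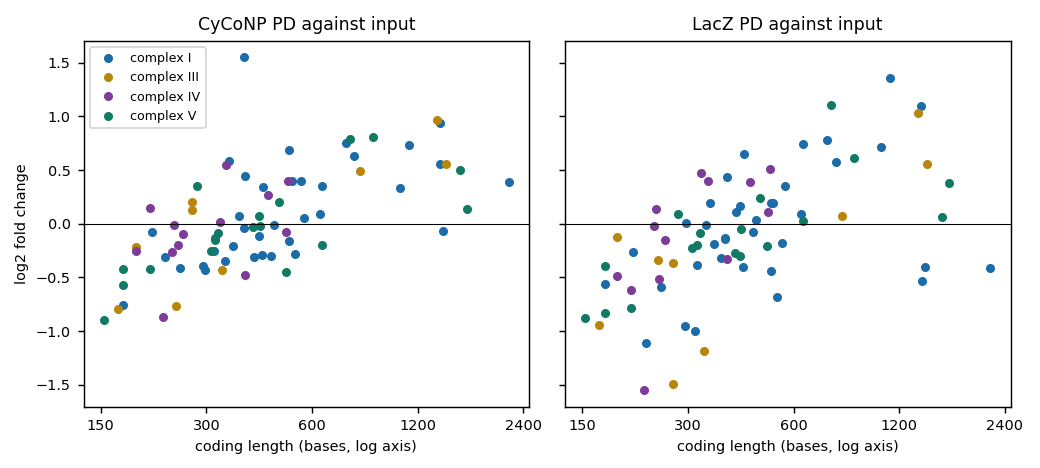
Log2 fold change against input of the tested members by coding length in bases (log axis), for CyCoNP PD on the left and LacZ PD on the right, coloured by complex; ATP5MGL, below the axis, is left out. Longer subunits lie higher than shorter ones in both pull-downs, with a rho of 0.66 and 0.60 over all 78 members.

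Within each group the members also differed by replicate number. In Input 68 of the 78 members had a higher CPM in replicate 2, against 41.1% of all genes. In CyCoNP PD it was 49 members against 46.7%, and in LacZ PD 62 members against 43.7%. The cytosolic ribosomal protein genes, whose mRNAs are also short and abundant, were likewise higher in replicate 2, with 12.97% and 19.9% of the counts in Input, 12.8% and 15.1% in CyCoNP PD, with 12.1% and 23.2% in LacZ PD. The mitochondrial ribosome genes took 0.585% and 0.834% in Input, so the shift was not particular to the subunits. NDUFA4 was at 554 and 1890 CPM in Input, 1163 and 1237 in CyCoNP PD, with 1272 and 2341 in LacZ PD. COX7B was at 454 and 1316 CPM in Input, 757 and 701 in CyCoNP PD, with 795 and 1506 in LacZ PD. With each replicate number on its own, the median log2 ratio of CyCoNP PD to input was 0.38 for number 1 and -0.36 for number 2. The fitted median moved to -0.42 when Input replicate 1 was left out and to 0.46 when Input replicate 2 was. With all libraries kept, it was 0.08 with the replicate number as a block and 0.0031 with DESeq2 and the block, so its sign changes with the input library left out and with the block.

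The pseudogene copies of the members moved with replicate number in the opposite direction. The 174 pseudogene rows of 46 members summed to 1805 and 351 CPM in Input, 1990 and 225 in CyCoNP PD, with 2014 and 350 in LacZ PD. They took 7.11% and 0.938% of the counts of pseudogenes and parents together in Input, 7.47% and 0.794% in CyCoNP PD, with 7.28% and 0.862% in LacZ PD. Of 50 rows with at least 10 counts, 48 were higher in replicate 1 in Input and 48 in CyCoNP PD. Of the other processed pseudogenes with as many counts, 87.2% and 85.8% were higher in replicate 1. In LacZ PD, where many rows had 0 counts, 19 of the 50 were higher in replicate 1 and 6 in replicate 2, and 30.8% of the other processed pseudogenes were higher in replicate 1. COX6CP6 had 150 and 3 counts in Input, against 422 and 4 in CyCoNP PD. COX6A1P2 was unlike it, with 147 and 138 counts in Input, against 239 and 67 in CyCoNP PD. Counts of near-identical copies are uncertain, since the assignment of reads can divide them. The summed level of the 8 markers of other cells also differed by number, with 450 and 26.5 CPM in Input, 232 and 21.4 in CyCoNP PD, with 265 and 21.4 in LacZ PD. In Input this sum rests on COL1A1 and COL1A2, the only markers detected in Input 1, while EPCAM had 0 and 6 counts, CDH5 0 and 2, and ALB 0 and 1. Whether other cells were present was not tested. The part of any difference between the replicate numbers in the subunit and pseudogene levels was not tested either.

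UQCRHL, an intronless copy of UQCRH that itself encodes a complex III hinge protein, followed the pseudogenes. It had 60 and 11 counts in Input, against 125 and 8 in CyCoNP PD, with 1 and 2 in LacZ PD, while UQCRH had 253 and 610, 800 and 351, and 10 and 93. In CPM, UQCRHL was at 83.6 and 13.9 in the input libraries and UQCRH at 352 and 770. The coding sequences differ at 4 of 273 bases (98.5% identity), and a stretch that holds 2 of the differences, in capitals, shows how little separates reads of the pair. The stretch is coding bases 138 to 167, at chr1:46310211-46310240 (plus strand) for UQCRH and chr1:15807483-15807512 (minus strand) for UQCRHL on GRCh38.
UQCRH: ccgggagcggctagagctctGtgatgagcG
UQCRHL: ccgggagcggctagagctctAtgatgagcA

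Where a subunit has alternative genes, the counts of some fell almost wholly on 1 of them. COX4I1 took 99.6% and 99.1% of the counts of COX4I1 and COX4I2, a form known from lung, in Input, and 99.4% and 98.6% in CyCoNP PD. COX6A1, COX6B1, COX7B and COX8A were detected while the alternative genes COX6A2, COX6B2, COX7B2 and COX8C were at 0. COX7A2 was at 740 and 1078 CPM in Input and COX7A2L, which takes part in supercomplexes, at 163 and 167. The c ring is encoded by 3 genes for an identical mature protein. ATP5MC2 took 58.2% and 66.2% of their counts in Input, against 59.9% and 69.2% in CyCoNP PD, with 58.3% and 61.9% in LacZ PD. ATP5MC3 took 30.2% and 18.0% in Input, 27.2% and 16.5% in CyCoNP PD, with 33.3% and 22.8% in LacZ PD. The share of ATP5MC3 was higher in replicate 1 of each group, and the groups overlapped. In CyCoNP PD against input the log2 fold changes of these genes not yet given were all within their SE of 0: COX4I1 had -0.08 ± 0.68 and COX4I2 0.40 ± 1.12, COX6A1 had 0.02 ± 0.70, COX6B1 -0.10 ± 0.79, COX7A2 -0.20 ± 0.71 and COX7A2L 0.55 ± 0.65. COX7B had -0.26 ± 0.73, COX8A 0.15 ± 0.64, UQCRH 0.13 ± 0.66, UQCRHL 0.21 ± 0.85, ATP5MG -0.25 ± 0.66 and ATP5MC1 -0.03 ± 0.70. The interval of the ATP5MC3 share in LacZ PD 1, from 48 counts, ran from 21.7% to 47.5%.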

How the data were processed

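PCR-cDNA of 2 Input, 2 CyCoNP PD and 2 LacZ PD libraries was sequenced on a Nanopore device. The authors basecalled with Guppy, aligned reads to GRCh38 with minimap2 2.24-r1122 (version from the submitters' processing notes) and counted them over Ensembl genes by Bambu. The authors deposited whole-number counts per gene, without normalization. The authors also deposited these values as CPM, which differed from counts over library totals by at most 5.1e-11 and were used only for that check. Symbols and positions came from GENCODE v44 on the same build, which held 12528 of the 12565 tested genes; an earlier Ensembl release was used by the authors.

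edgeR 4.0.16 (R 4.3.3) was run on genes with at least 10 counts in total (TMM, quasi-likelihood F test, a single fit of 3 groups). Adjustment was by Benjamini-Hochberg over all genes tested, and a call needed an adjusted p under 0.05 and a log2 fold change beyond 1 in size. SEs came from the F statistic. The scripts were tested on simulated data. Alternatives were DESeq2 1.42.0, DESeq2's size factors, library size alone, no filter, filterByExpr, only the groups compared, the replicate block, pseudogene counts added to parents, and leaving out each library. Counts of members whose libraries do not overlap, and of same-numbered pairs, after TMM scaling were added after seeing the data.

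The deviations of same-numbered libraries from their group means correlated across genes at 0.447 (Input and CyCoNP PD), 0.251 (Input and LacZ PD) and 0.246 (CyCoNP PD and LacZ PD), each over the limit of 0.1 set for pairs, so a fit with the number as a block was run as an alternative. With 2 libraries a group only these 3 values are distinct. The study names no block, so the fold changes, SEs and p-values given come from the unpaired fit. No library was a repeat deposit of its replicate (chi-square of the counts per degree of freedom 18.4, 14.3 and 4.11), which is all this check bears on. The study calls the pull-downs biological duplicates.

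The members and lists were chosen with earlier results of these data known. Genes were named by this rule: in each complex the 2 highest in input, in each comparison the 3 with the smallest p in each direction, any called member, ATP5PO, and genes for alternative forms of a subunit. NDUFA4, NDUFA10, NDUFV3, ATP5ME, the pseudogenes and the members listed as not overlapping were named outside it, after their values were seen. Of the genes picked, 1 is left out of the text and of the labelled figures.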

Additional observations from a re-analysis of the deposited data

How the results depend on the processing

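Under each alternative fit, 0 members were called in any of the 3 comparisons, and with the replicate number as a block the member calls were also 0, so the block changed no call. Of the 44 log2 fold changes followed, which take in all those printed for members, 11 of 394 values under alternatives other than leaving out a library and 30 of 263 with a library left out had the opposite sign. Over all the members followed in all 3 comparisons these were 65 of 884 and 92 of 591. For each sign change the cause was not tested.

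In CyCoNP PD against input, under alternatives that keep every library, these were the values of the opposite sign. COX6A1 was at -0.028 with DESeq2's size factors and with DESeq2, -0.0032 with library size alone, -0.021 with no count filter and -0.035 with pseudogene counts added. ATP5MC1 was at 0.13 with the replicate block, 0.047 with DESeq2 and the block, and 0.016 with pseudogene counts added. With the replicate block COX4I1 was at 0.0088, COX6B1 at 0.056 and COX7B at 0.067.

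Leaving out 1 library moved the values between -0.54 and 0.10 for NDUFB2, -0.81 and 0.19 for NDUFB3, -0.71 and 0.42 for COX7C, -0.30 and 0.58 for ATP5MC2, -1.52 and 1.85 for UQCRHL, -0.54 and 0.92 for COX6A1, -0.49 and 0.16 for ATP5PO, and -0.49 and 0.65 for ATP5MC1. The limits were -0.35 and 0.26 for ATP5MC3, -0.42 and 0.37 for COX4I1, -0.41 and 1.69 for COX4I2, -0.55 and 0.56 for COX6B1, -0.52 and 0.21 for COX7A2, -0.88 and 0.84 for COX7B, -0.45 and 0.57 for COX8A, -0.38 and 0.93 for UQCRH, and -0.38 and 0.33 for NDUFV3. Without Input replicate 2 ATP5F1E was at -0.59, COX6C at -0.58, UQCR11 at -0.51 and UQCRQ at -0.47, and ATP5MGL ran from -5.41 to -2.89, with no change of sign. Between the pull-downs the limits were -0.023 and 2.41 for UQCRHL, -0.93 and 0.63 for COX6A1, and -0.91 and 0.85 for NDUFB7.

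The median of the members in LacZ PD against input ran from -1.31 (without LacZ PD replicate 2) to 0.33 with a library left out, and was -0.66 with replicate number 1 alone, an alternative chosen after seeing the data. The medians of all genes were -4.52 without LacZ PD replicate 2 and -2.44 with number 1 alone, below those of the members. Between the pull-downs it ran from -0.34 to 1.31 (without LacZ PD replicate 2), and was 1.01 with number 1 alone, where the medians of all genes were 4.58 and 2.32. The member share of counts with pseudogenes added was 3.53% in Input 1 and 3.88% in CyCoNP PD 1. With mitochondrially encoded genes left out of the total it was 3.49%, 5.13%, 4.01% and 4.03% in Input 1, Input 2, CyCoNP PD 1 and CyCoNP PD 2.

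The depth of LacZ PD limits both of its comparisons: in LacZ PD 1 the tested members had a median of 7 counts. A fit without LacZ PD replicate 2 leaves that group with LacZ PD 1 alone, which is then assumed to vary like the other groups.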

Other observations

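Other mitochondrial gene lists gave 0 calls in CyCoNP PD against input with edgeR, each list described by its median beside -0.01 for all genes. The 6 genes of the rest of the chain, which are succinate dehydrogenase subunits, CYCS and CYC1, had a median log2 fold change of 1.12, with 6 of 6 above 0 and 1 higher at an unadjusted p under 0.05. Of all genes, 49.4% were above 0 and 3.08% were higher at that p. The 13 citric acid cycle genes had 0.62, with 10 above 0, the 24 import translocase genes 0.36, with 17 above 0, and the 78 mitochondrial ribosome genes 0.19, with 55 above 0. The 83 cytosolic ribosome genes had -0.12, with 33 above 0. At the same unadjusted p 2 import translocase genes and 2 mitochondrial ribosome genes were higher, and 0 of the citric acid cycle or cytosolic ribosome genes. In LacZ PD against the same input libraries, where 32.4% of all genes were above 0 and their median was -0.68, the rest of the chain had a median of 0.22, with 4 of 6 above 0. The citric acid cycle had -0.05, with 6 of 13, and the import translocases 0.13, with 13 of 24. The mitochondrial ribosome had 0.22, with 44 of 78, and the cytosolic ribosome -0.23, with 29 of 83. At an unadjusted p under 0.05, 1 gene of the rest of the chain and 2 import translocase genes were higher (0.74% of all genes). At that p 2 mitochondrial ribosome genes and 1 cytosolic ribosome gene were lower (6.28% of all genes).

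The 13 protein-coding genes of mitochondrial DNA, whose products join the nuclear subunits in complexes I, III, IV and V, had a median of -0.57, with values from -2.17 to 5.25. They took 3.83% and 1.89% of the counts in Input, against 8.16% and 5.16% in CyCoNP PD, with 2.75% and 1.58% in LacZ PD. Both CyCoNP PD libraries lay above the other 4 libraries in this share, and replicate 1 lay above replicate 2 in each group, opposite to the nuclear subunits. A few genes carry this share: in CyCoNP PD 1 MT-ND1 had 48901, MT-ND5 39555 and MT-CYB 13174 of the 123357 counts, and in CyCoNP PD 2 they had 3481, 9048 and 8474 of 26544. Of the 13 genes, 8 had a log2 fold change below 0 against input. At an unadjusted p under 0.05, 4 of them were higher and 3 lower, against 3.08% and 2.32% of all genes. Their smallest edgeR adjusted p was 0.0661. In LacZ PD against input the 13 genes had a median of -2.43, with 2 above 0. All genes had -0.68 there, with 32.4% above 0. At an unadjusted p under 0.05, 1 was higher and 9 lower, against 0.74% and 6.28% of all genes. MT-ND1 was higher in both pull-downs, with a log2 fold change of 5.25 ± 1.02 (SE) in CyCoNP PD and 2.58 ± 0.91 in LacZ PD. In LacZ PD MT-ND5 had -4.19 ± 1.14 and MT-CYB -0.51 ± 0.72.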
